A study of Mus musculus with 12 samples.

Results

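Creatine kinases move phosphate between ATP and creatine, and 8 genes of this system were followed in mouse hearts that express NOTCH2NLC with 98 GGC repeats. They were the rows of the count table with the symbols Ckm, Ckmt2, Ckb, Ckmt1, Slc6a8, Gatm, Gamt and Ak1, which are 8 of the 25171 loci counted. RNA from 12 hearts was sequenced, 3 in each of 4 groups, and EIIa-ctl and EIIa-tg mice were 30 days old while Myh6-ctl and Myh6-tg mice were 90 days old. By the labels and the methods, the lines share a conditional transgene at the Rosa26 site that stays silent until Cre removes a stop cassette flanked by loxP sites. EIIa-tg mice also carried EIIa-Cre, which acts in all tissues from the embryo on, and EIIa-ctl mice, named E2a-control in the labels, were littermates that lacked this Cre. Both Myh6 groups have the Myh6 transgenic genotype in their labels, with a Cre that is made in cardiomyocytes and becomes active with tamoxifen. Myh6-tg mice received 3 injections of tamoxifen at 75 mg per kg from day 60, and Myh6-ctl mice received corn oil, so tamoxifen and transgene expression cannot be told apart in this model. The labels of EIIa-tg replicates 2 and 3 name other genotypes than replicate 1, and their titles were followed.

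In heart muscle, ATP is made in mitochondria and used at the myofibrils and the ion pumps. Creatine kinase in the space between the mitochondrial membranes charges creatine to phosphocreatine, and creatine kinase at the sites of use turns phosphocreatine back into ATP, so the pair acts as a store and a shuttle of high-energy phosphate. Cardiomyocytes do not make enough creatine themselves and take it up from blood through a transporter, and a fall of creatine kinase and of total creatine is a known feature of the failing heart. Creatine itself is made in other organs from arginine, glycine and a methyl group.

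The members have distinct parts in this system. Ckm encodes the muscle creatine kinase of the myofibrils, Ckmt2 the sarcomeric mitochondrial creatine kinase, Ckb the cytosolic brain-type enzyme, which is the form of the embryonic heart, and Ckmt1 the ubiquitous mitochondrial enzyme. Slc6a8 encodes the creatine transporter of the plasma membrane. Gatm encodes the enzyme that makes guanidinoacetate from arginine and glycine, and Gamt the enzyme that methylates guanidinoacetate to creatine. Ak1 encodes cytosolic adenylate kinase, which makes ATP and AMP from ADP and serves the same transfer beside creatine kinase.

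All 8 are protein-coding genes, placed here by GENCODE M21 on GRCm38, the build named in the study's methods. Ckm (ENSMUSG00000030399) lies on the plus strand of chromosome 7 from 19404776 to 19422841, Ckmt2 (ENSMUSG00000021622) on the minus strand of chromosome 13 from 91853387 to 91876885, and Ckb (ENSMUSG00000001270) on the minus strand of chromosome 12 from 111669361 to 111672338. Chromosome 2 holds 3 of them, which are Ckmt1 (ENSMUSG00000000308, plus strand, 121357714 to 121363737), Gatm (ENSMUSG00000027199, minus strand, 122594467 to 122611303) and Ak1 (ENSMUSG00000026817, plus strand, 32621758 to 32635058). Slc6a8 (ENSMUSG00000019558) lies on the plus strand of chromosome X from 73673150 to 73682502, and Gamt (ENSMUSG00000020150) on the minus strand of chromosome 10 from 80258151 to 80261012. Exons of 3 members share bases with exons of a gene on the other strand: Ckm shares 451 of its 2913 exonic bases with A930016O22Rik, Ckmt2 shares 84 of 1486 with 1700119I11Rik, and Ckmt1 shares 10 of 2496 with Strc. The library kit named in the methods does not mark strand, so reads in those bases cannot be assigned to one gene of a pair.

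The sequences before the starts of Ckm, Ckmt2 and Ckb are shown because Ckm and Ckmt2 had the most negative fold changes of the members in both models, while the brain-type gene did not follow them. RefSeq (GRCm38.p6) had an entry for 7 of the 8 members, with 11 starts in all, and none was given for Slc6a8. Each run holds the 250 bases before the start, 5′ to 3′ on the strand of the gene, at chr7:19410844-19411093 (plus strand) for Ckm, chr13:91876886-91877135 (minus strand) for Ckmt2 and chr12:111672339-111672588 (minus strand) for Ckb. The RefSeq start of Ckm lies inside the gene as placed above, which begins at 19404776. Capitals mark matches to the motifs searched.
Ckm: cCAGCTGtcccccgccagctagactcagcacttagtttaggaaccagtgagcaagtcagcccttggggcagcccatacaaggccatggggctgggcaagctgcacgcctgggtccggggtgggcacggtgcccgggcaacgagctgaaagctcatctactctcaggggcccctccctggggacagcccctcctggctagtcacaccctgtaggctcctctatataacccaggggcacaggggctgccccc
Ckmt2: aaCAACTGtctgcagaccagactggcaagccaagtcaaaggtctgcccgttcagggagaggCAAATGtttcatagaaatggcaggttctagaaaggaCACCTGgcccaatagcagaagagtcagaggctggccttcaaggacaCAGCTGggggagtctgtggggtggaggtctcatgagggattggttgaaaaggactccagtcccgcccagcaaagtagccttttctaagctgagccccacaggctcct
Ckb: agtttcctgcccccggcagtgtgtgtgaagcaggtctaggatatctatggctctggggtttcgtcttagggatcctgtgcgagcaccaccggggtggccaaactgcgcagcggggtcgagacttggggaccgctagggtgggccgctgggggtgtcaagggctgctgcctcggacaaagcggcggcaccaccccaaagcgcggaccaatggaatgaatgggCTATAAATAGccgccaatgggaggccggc

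The motifs searched on both strands were the E-box CANNTG, the estrogen-related receptor element TNAAGGTCA and its half-site AGGTCA, the MEF2 motif, the CArG box of serum response factor and the TATA motif TATAAA. Ckmt2 held 4 E-boxes, at positions -248, -189, -153 and -107 from its start, and Ckm held 1, at position -249. An E-box was found in 66.2% of the 32851 RefSeq windows of 250 bases. Ckb held no E-box but 1 MEF2 match, at position -29, which contains its TATA match, and these motifs were found in 2.92% and 12.4% of all windows. None of the 11 windows of the members held the estrogen-related receptor element, which 1.14% of all windows held. A half-site was found in windows of Ak1, Ckmt1 and Gatm, against 14% of all windows. No CArG box, which 1.47% of all windows held, was found in the members' windows. These matches describe letters in these windows and are not binding sites shown by the data.

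Each heart gave between 38343106 and 50969834 counts, and the floor of 3 counts was worth 0.0589 to 0.0782 CPM (a count scaled to the total of its heart), which covers counting error only. Cardiomyocyte genes were abundant in all hearts, and neuronal Snap25 and Syt1 stayed at or under 0.128 CPM, although a protocol label names brain tissue. The share of counts from mitochondrial genes was 35.1% ± 1.36 (SD, n = 3) for EIIa-ctl hearts against 30.7% ± 1.99 for EIIa-tg, and 35.9% ± 3.56 for Myh6-ctl against 17.3% ± 1.62 for Myh6-tg, which raises the CPM of other genes in the last group. The tests scale by TMM (trimmed mean of M values), with factors of 0.825 to 1.04 for Myh6-ctl and 1.09 to 1.30 for Myh6-tg. Esr1, of which a part belongs to the tamoxifen-inducible Cre, stood at 1410.3 ± 532 CPM (SD, n = 3) in the hearts labelled Myh6-ctl. It stood at 1.92 ± 0.962 CPM in those labelled Myh6-tg, although the labels give both groups the same genotype. In EIIa-ctl and EIIa-tg hearts, which lack this Cre by the methods, Esr1 stood at 0.689 ± 0.353 and 0.990 ± 0.335 CPM. Counts of the transgene itself were not analysed here, so directions in the Myh6 model follow the labels. The Esr1 difference between the Myh6 groups was not resolved, and it cannot be told apart from tamoxifen and transgene expression.

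In control hearts, Ckmt2 and Ckm made up nearly all creatine kinase transcripts. Levels of different genes are compared as FPKM, the deposited fragment counts scaled to transcript length and sequencing depth. In EIIa-ctl hearts Ckmt2 stood at 1117 ± 57.8 FPKM (SD, n = 3) and Ckm at 749 ± 86.1 FPKM, ahead of Ak1 at 148 ± 3.46, Slc6a8 at 40.5 ± 5.05 and Ckb at 30.2 ± 1.84 FPKM. The creatine synthesis genes were low, with Gamt at 4.09 ± 1.41 and Gatm at 1.72 ± 0.707 FPKM, whose ranges over the 3 hearts do not overlap, and Ckmt1 was close to the floor at 0.0543 ± 0.0554 FPKM. In Myh6-ctl hearts the order was the same as in EIIa-ctl hearts, from Ckmt2 at 934 ± 200.1 and Ckm at 592 ± 85.5 down to Ckmt1 at 0.298 ± 0.277 FPKM. Here Gamt at 3.31 ± 0.483 and Gatm at 2.05 ± 0.821 FPKM overlapped over the hearts. In the hearts labelled Myh6-tg, Slc6a8 at 113 ± 25.6 FPKM stood level with Ckm at 109 ± 70.3 FPKM, and Ckb at 51.8 ± 6.64 FPKM level with Ak1 at 48.1 ± 10.04 FPKM.

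**Figure D1:**
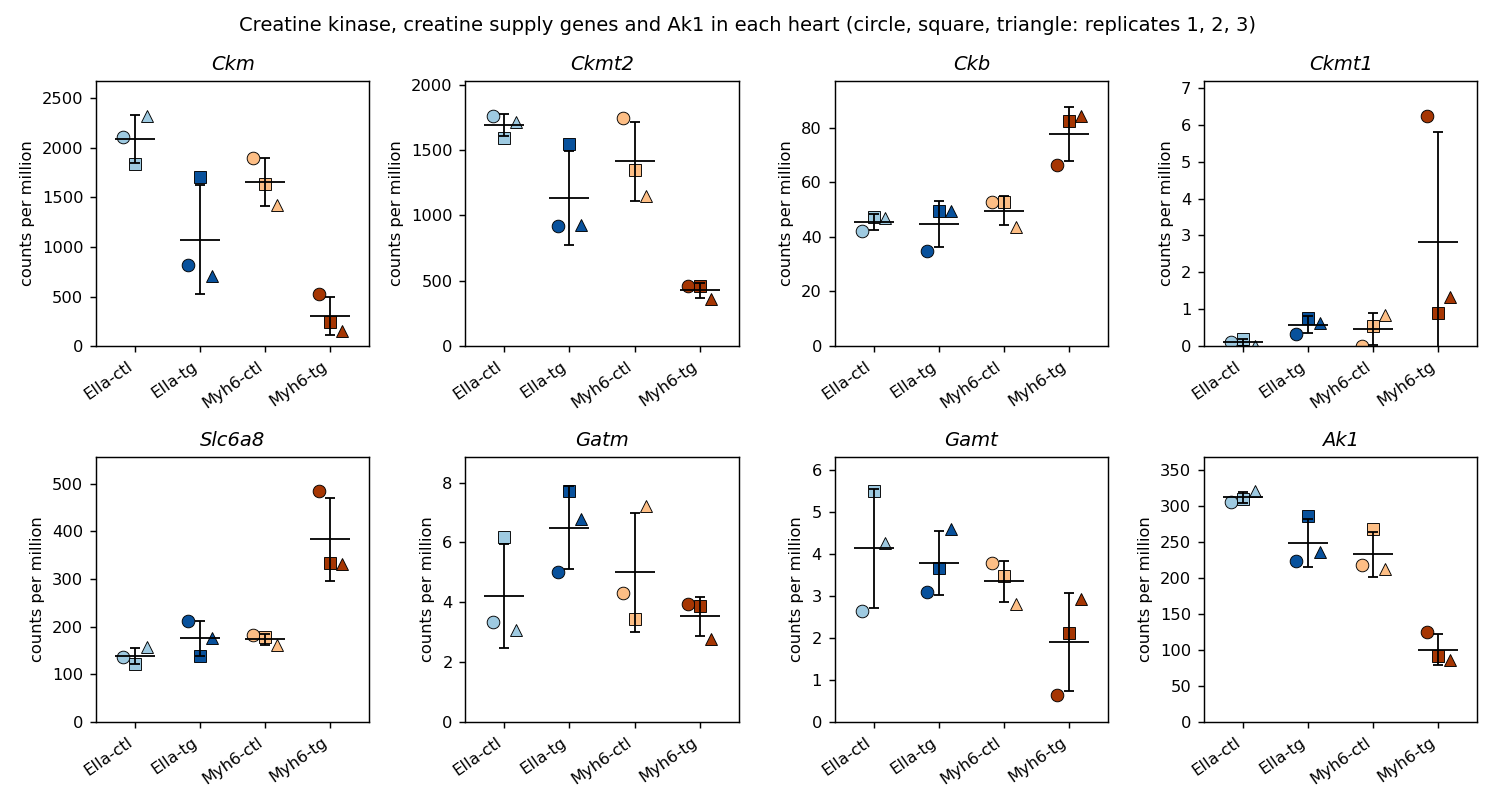
CPM (y axis, linear, from 0) of the 8 genes in each of the 12 hearts, in 1 panel per gene, with the 4 groups on the x axis, 1 symbol per heart, and the group mean with its SD as bars. Ckm, Ckmt2 and Ak1 were lowest in the 3 hearts labelled Myh6-tg, and Slc6a8 and Ckb were highest there.

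In the EIIa model, Ak1 was the member that passed the test, falling by 0.52 ± 0.14 (SE) on the log2 scale. Ckm and Ckmt2 were lower in all 3 EIIa-tg hearts than in any EIIa-ctl heart, as were 11.4% of all genes, and did not pass the test. The genes of creatine supply did not separate the groups. With edgeR's quasi-likelihood test and Benjamini-Hochberg adjustment over 14908 genes, 1 of the 8 members was called at an adjusted p under 0.05, and 17% of all genes tested were called. No gene of the table was a DEG here, meaning an adjusted p under 0.01 and an absolute log2 fold change of 1 or more (0% of all genes), and 5204 genes had an unadjusted p under 0.05 while DESeq2 gave 836 DEGs, of which 0 were members. The median log2 fold change was -0.27 over the 8 members and 0.02 over all genes tested. Macrophage markers moved with the genotype, all 6 of 6 being called higher, with a summed level of 202 to 314 CPM in EIIa-ctl and 436 to 653 CPM in EIIa-tg hearts. The 8 cardiomyocyte markers summed to 34374 to 39736 CPM in EIIa-ctl and to 18227 to 32236 CPM in EIIa-tg hearts, with 2 of 8 called lower, and the part of these shifts in the members' values was not tested. In whole hearts, fewer cells of a type and less RNA per cell cannot be told apart.

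Ckm counted 2112, 1839.8 and 2324 CPM in EIIa-ctl replicates 1 to 3, and 814, 1702 and 702 CPM in EIIa-tg replicates 1 to 3. The groups did not overlap, but EIIa-tg replicate 2 lay near the controls and the other two transgenic hearts far below them. The log2 fold change was -1.14 ± 0.35 (SE), with an adjusted p of 0.0551 in edgeR's test. Without EIIa-tg replicate 2 it was -1.70, with an adjusted p of 0.000869 in the same test. This was the only 1 of the 6 fits without a heart that called Ckm. The adjusted p rose to 0.163 by edgeR without EIIa-ctl replicate 3. Of 11 other analyses 3 called Ckm. These were edgeR with no filter on low counts (adjusted p = 0.0396) and limma on FPKM with a filter (0.0393 and 0.0405).

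Ckmt2 showed the same split. It counted 1764, 1596.5 and 1714 CPM in EIIa-ctl hearts and 917, 1548 and 929 CPM in EIIa-tg hearts, again with replicate 2 next to the controls and no overlap. The log2 fold change was -0.76 ± 0.24 (SE) with an adjusted p of 0.0605 by edgeR, and -1.11 with an adjusted p of 0.00134 without EIIa-tg replicate 2. That fit was again the only 1 of 6 without a heart that called the gene. Without EIIa-tg replicate 1 the adjusted p rose to 0.174 by edgeR. Of 11 other analyses 2 called Ckmt2, which were DESeq2 (adjusted p = 0.00296) and edgeR with no filter on low counts (adjusted p = 0.0480).

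Ak1 counted 306, 309.9 and 321 CPM in EIIa-ctl hearts and 224, 286 and 236 CPM in EIIa-tg hearts. The controls lay close together and all 3 transgenic hearts were below them, with replicate 2 once more the nearest. Its change of -0.52 had an adjusted p of 0.0374 by edgeR, a level 1.43 times lower in EIIa-tg hearts. This call held in 1 of the 6 fits that left out a heart, the one without EIIa-tg replicate 2 (adjusted p = 0.00261 by edgeR), and the adjusted p without each of the others lay between 0.0619 and 0.127. Of 11 other analyses it held in 5, and it was lost with all 12 hearts in one fit (adjusted p = 0.210), with the replicate block (0.0873), with a covariate for Y-linked counts (0.0563, all by edgeR) and in 3 limma fits on FPKM (adjusted p of 0.0696 to 0.0963). In the limma fits with a filter on low values Ckm was called in place of Ak1, with adjusted p of 0.0393 and 0.0405. Ak1 is also made in red blood cells, whose 5 markers summed to 1379 to 2450 CPM in EIIa-ctl and to 218 to 1255 CPM in EIIa-tg hearts with 1 of 5 called lower, and the part of blood in the Ak1 value was not tested.

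The other creatine kinase genes did not pass. Ckb stood at 42.1, 47.2 and 46.8 CPM in EIIa-ctl and at 34.9, 49.5 and 49.5 CPM in EIIa-tg hearts, which overlap, with a log2 fold change of -0.22 ± 0.14 (SE, adjusted p = 0.294 by edgeR). Ckmt1 had 5, 8 and 0 counts in EIIa-ctl and 13, 39 and 26 counts in EIIa-tg hearts. Its groups did not overlap, as for 33.4% of genes in the higher direction, and the log2 fold change of 2.34 ± 0.88 had an adjusted p of 0.10 by edgeR. It was 3.16 without EIIa-ctl replicate 2 and 1.78 without EIIa-ctl replicate 3. At these counts the value is imprecise, and the count of 0 in EIIa-ctl replicate 3 allows up to 0.0729 CPM.

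Genes of creatine supply overlapped between EIIa-ctl and EIIa-tg hearts. The transporter gene Slc6a8 stood at 137, 121 and 156 CPM in EIIa-ctl and at 211, 139 and 175 CPM in EIIa-tg hearts, with a log2 fold change of 0.14 ± 0.17 (SE, adjusted p = 0.587 by edgeR). Gatm stood at 3.35, 6.19 and 3.06 CPM against 5.0, 7.71 and 6.77 CPM, a log2 fold change of 0.45 ± 0.29 (adjusted p = 0.302 by edgeR). Gamt stood at 2.64, 5.48 and 4.25 CPM against 3.09, 3.65 and 4.60 CPM, a log2 fold change of -0.32 ± 0.27 (adjusted p = 0.441 by edgeR). Gatm was lowest in 2 of the control hearts and Gamt in 1 of them, so neither gene ordered the hearts by genotype.

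In the Myh6 model, Ckm, Ckmt2 and Ak1 fell, by 7.0, 4.40 and 3.06 times in the hearts labelled Myh6-tg. Slc6a8, Ckb and Ckmt1 were higher in CPM in all 3 of these hearts than in any control, which is 3 of 8 members where 34.8% of all genes were higher in this way, and none of them passed the test. The synthesis genes Gatm and Gamt overlapped. By edgeR 3 of 8 members were called, all lower, where 9.38% of the 15298 genes tested were called lower and 18.3% were called in all. Ckmt2 was the 1 DEG among the members, where 3.97% of all genes were DEGs. The same-numbered hearts of this model varied together, and with the replicate number as a block all 3 called members were DEGs, with adjusted p of 0.00354 for Ckm, 0.00277 for Ckmt2 and 0.00694 for Ak1 by edgeR. The median log2 fold change was -1.07 over the members and 0.03 over all genes tested. Cardiomyocyte markers summed to 29783 to 32345 CPM in Myh6-ctl and to 13451 to 33277 CPM in Myh6-tg hearts, with 4 of 8 called lower, among them Myl3 at -1.97 and Tnni3 at -2.39 on the log2 scale, while Actn2 at 0.58, Tnnt2 at 0.44, Ryr2 at -0.28 and Actc1 at -0.71 were not called. Fibroblast markers summed to 1659 to 2489 CPM and to 2793 to 7940 CPM, with 3 of 7 called higher, and the part of these shifts in the members' values was not tested.

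Ckm counted 1900.3, 1635 and 1422 CPM in Myh6-ctl replicates 1 to 3 and 521, 241 and 149 CPM in Myh6-tg replicates 1 to 3. All 3 hearts labelled Myh6-tg were below every control, with replicate 1 the highest of them. This heart was also the only 1 of its group with Y-linked counts, so its deviation and its sex cannot be told apart. In the other groups, too, only replicate 1 had more than 2 Y-linked counts (4733 in EIIa-ctl, 4224 in EIIa-tg and 5245 in Myh6-ctl). Replicate number, used as a block above, therefore goes with sex in part. The log2 fold change was -2.81 ± 0.53 (SE), with an adjusted p of 0.0134 by edgeR. The call was lost without Myh6-ctl replicate 1 (adjusted p = 0.0528) or without Myh6-tg replicate 2 (adjusted p = 0.0551, both by edgeR), at log2 fold changes of -2.67 and -2.64.

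Ckmt2 counted 1744, 1351 and 1148 CPM in Myh6-ctl and 457, 463 and 359 CPM in Myh6-tg hearts. The 3 hearts labelled Myh6-tg were close together, unlike for Ckm, and far below the controls. The log2 fold change was -2.14 ± 0.31 (SE), with an adjusted p of 0.00586 by edgeR, and it stayed called when any 1 heart was left out, with the highest adjusted p at 0.0302 by edgeR.

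Ak1 counted 218, 269 and 213 CPM in Myh6-ctl and 125, 91.1 and 85.4 CPM in Myh6-tg hearts, without overlap. The log2 fold change was -1.61 ± 0.28 (SE), with an adjusted p of 0.0106 by edgeR, and the highest adjusted p without 1 heart was 0.0484. Red blood cell markers summed to 4307 to 8034 CPM in Myh6-ctl and to 2243 to 4492 CPM in Myh6-tg hearts, with 3 of 5 called lower. Of all genes, 10.8% were lower in CPM without overlap here, and Ckm, Ckmt2 and Ak1 were the members among them.

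The creatine transporter gene Slc6a8 counted 182, 179 and 160.4 CPM in Myh6-ctl and 484, 334 and 332 CPM in Myh6-tg hearts. It was higher in all 3 hearts labelled Myh6-tg, without overlap in CPM. After TMM scaling the log2 fold change was 0.75 ± 0.27 (SE), a level 1.68 times higher, with an adjusted p of 0.0914 by edgeR. It passed the test in 5 of 11 other analyses of the 6 or 12 hearts, among them the fit of all 12 hearts (adjusted p = 0.0307 by edgeR) and limma on log2(FPKM + 1) (adjusted p = 0.00576). On that FPKM scale the median of all genes was itself 0.34 higher in Myh6-tg hearts, and relative to it Slc6a8 was higher by 0.77.

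Ckb, the form of the embryonic heart, counted 52.6, 52.8 and 43.5 CPM in Myh6-ctl and 66.2, 82.2 and 84.4 CPM in Myh6-tg hearts. These did not overlap, but the TMM-scaled log2 fold change was 0.22 ± 0.20 (SE), with an adjusted p of 0.478 by edgeR. In limma on log2(FPKM + 1) it passed (adjusted p = 0.0306) with a change of 0.63, which is 0.29 above that of the median gene. So Ckb kept its direction under both scalings, and the size of its change depended on the scale.

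Ckmt1 had 0, 26 and 43 counts in Myh6-ctl and 269, 34 and 54 counts in Myh6-tg hearts. Myh6-tg replicate 1 stood far above the other two, which were near the highest control in CPM (0.845 against 0.887 and 1.33 CPM). The log2 fold change of 2.32 ± 1.25 (SE, adjusted p = 0.234 by edgeR) was 0.82 without that heart.

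Gatm counted 4.32, 3.44 and 7.23 CPM in Myh6-ctl and 3.92, 3.89 and 2.78 CPM in Myh6-tg hearts, with a log2 fold change of -0.85 ± 0.33 (SE, adjusted p = 0.113 by edgeR). Gamt counted 3.77, 3.46 and 2.81 CPM against 0.627, 2.11 and 2.93 CPM, with a log2 fold change of -1.29 ± 0.52 (SE, adjusted p = 0.126 by edgeR). Both overlapped in CPM. For Gamt, Myh6-tg replicate 1, the heart with the highest Ckmt1 and Slc6a8, had the lowest level, from 27 counts.

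**Figure D2:**
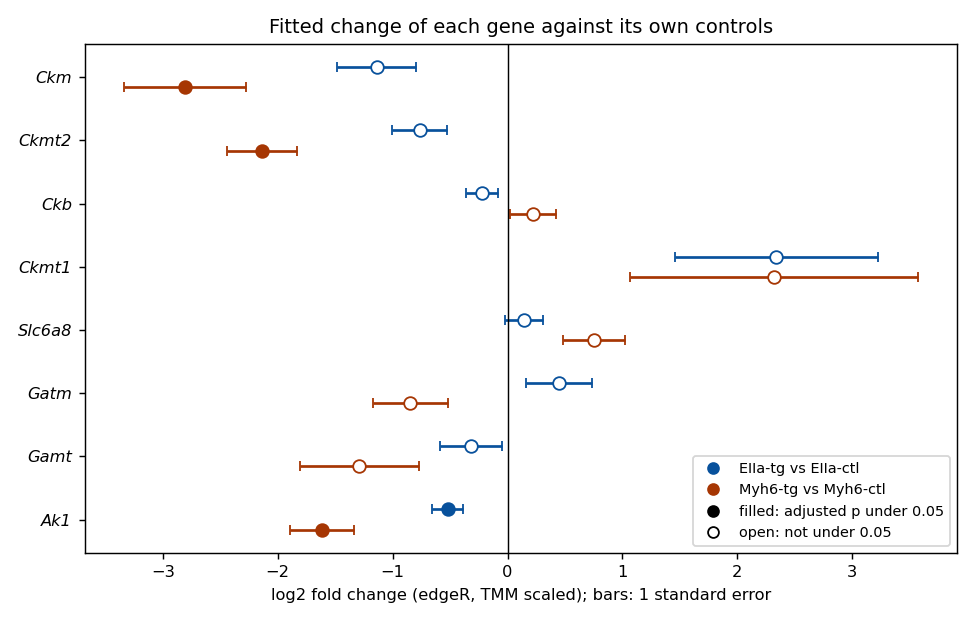
Log2 fold change (x axis) of each member against its own controls in the EIIa and the Myh6 model, with bars of 1 standard error and filled symbols for an adjusted p under 0.05 by edgeR. Ckm, Ckmt2 and Ak1 lie left of 0 in both models, and 4 of the 16 symbols are filled.

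Whether the 2 models changed the members differently was tested in all 12 hearts as the change in Myh6-tg minus the change in EIIa-tg. By edgeR 0 of 8 members were called, where 3.92% of 15929 genes were (1.65% higher and 2.27% lower), and DESeq2 called 2, while 4 members had an unadjusted p under 0.05, as 19.4% of all genes did. These were Ckmt2 (difference -1.37 ± 0.40 SE, adjusted p = 0.0809), Ak1 (-1.09 ± 0.32, adjusted p = 0.0819), Gatm (-1.30 ± 0.45, adjusted p = 0.132) and Ckm (-1.67 ± 0.67, adjusted p = 0.194, all by edgeR). The fold changes of Ckm, Ckmt2 and Ak1 were more negative in the hearts labelled Myh6-tg, but the difference did not pass the test. Without Myh6-tg replicate 1 it passed for all 3 of these genes, with adjusted p of 0.0170 for Ckm, 0.0419 for Ckmt2 and 0.00895 for Ak1 by edgeR. For Ckmt2 it also passed without Myh6-ctl replicate 3 (adjusted p = 0.0478). It thus passed in 1 of 12 fits without a heart for Ckm and for Ak1, and in 2 of 12 for Ckmt2. Without EIIa-tg replicate 2 the adjusted p was 0.420 for Ckm, 0.175 for Ckmt2 and 0.184 for Ak1 by edgeR. Gatm had fold changes of opposite sign, 0.45 in EIIa-tg and -0.85 in hearts labelled Myh6-tg, neither past the test. The differences for Ckb (0.44 ± 0.24, adjusted p = 0.355), Slc6a8 (0.60 ± 0.33, adjusted p = 0.352) and Gamt (-0.98 ± 0.60, adjusted p = 0.403, all by edgeR) were smaller than 2 standard errors. Ckmt1 differed by -0.02 ± 0.79, an error too wide to bound the difference.

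Between the control groups, which differ in age, Cre line and oil injection at once, 0 of the 7 members tested were called by edgeR, where 5 genes (0.0334%) were, among them 0.0133% lower. DESeq2 called none of the members either, and Ak1 alone had an unadjusted p under 0.05 by edgeR. Ak1 was lower in Myh6-ctl than in EIIa-ctl hearts without overlap (-0.41 ± 0.18, SE), with an adjusted p of 0.436 by edgeR. Slc6a8 was higher without overlap (0.33 ± 0.18, adjusted p = 0.531 by edgeR), where 6.86% of genes were higher and 9.23% lower in this way. Ckm, Ckmt2, Ckb, Gatm and Gamt overlapped, with log2 differences between -0.33 and 0.22.

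Over the 4 groups, the order of the levels in CPM thus differed by gene. Between Myh6-ctl and Myh6-tg hearts alone, 34.8% of all genes were higher and 10.8% lower in CPM without overlap. Ckm, Ckmt2 and Ak1 were lowest in Myh6-tg hearts, which overlapped with no other group for any of these 3 genes, while EIIa-tg and Myh6-ctl hearts overlapped for all 3. Slc6a8 and Ckb were highest in Myh6-tg hearts, again without overlap with another group, and the other groups overlapped for both genes except the controls for Slc6a8. Ckmt1 was also highest in Myh6-tg hearts without overlap, and among the other groups EIIa-ctl and EIIa-tg did not overlap. None of Slc6a8, Ckb and Ckmt1 passed edgeR's TMM-scaled test in the Myh6 model. CPM in Myh6-tg hearts is raised by their lower mitochondrial share, and overlap after TMM scaling was not examined. Gamt overlapped between all pairs of groups but EIIa-tg and Myh6-tg, and so did Gatm.

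The make-up of creatine kinase transcripts shifted as the sum fell. Summed over Ckm, Ckmt2, Ckb and Ckmt1, the level was 1895 ± 133 FPKM (SD, n = 3) for EIIa-ctl against 1163 ± 439 for EIIa-tg, and 1559 ± 288 for Myh6-ctl against 445 ± 95.1 FPKM for Myh6-tg. The Ckm share of this sum was 39.4% ± 2.04 for EIIa-ctl against 32.1% ± 4.32 for EIIa-tg, and 38.1% ± 1.49 for Myh6-ctl against 23.2% ± 10.4 for Myh6-tg. By heart, the Ckm share was 38.8%, 37.8% and 41.7% in EIIa-ctl and 31.9%, 36.6% and 28.0% in EIIa-tg hearts, below the controls in all 3. In the Myh6 model the Ckm share was 36.4%, 38.7% and 39.3% in controls and 34.9%, 19.3% and 15.3% in Myh6-tg hearts, also below the controls, with replicate 1 close to them.

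The ratio of Ckm to Ckmt2 in FPKM followed this. It was 0.670 ± 0.0578 (SD, n = 3) for EIIa-ctl against 0.497 ± 0.0937 for EIIa-tg, and 0.639 ± 0.0429 for Myh6-ctl against 0.376 ± 0.215 for Myh6-tg. In Myh6-tg replicate 1 it was 0.622, within the range of 0.591 to 0.671 of its controls, against 0.282 and 0.225 in replicates 2 and 3. Relative to the controls, both transcripts were thus lower to a like degree in this heart, and Ckm more so than Ckmt2 in the other two. Ratios and shares are descriptions, and no test was made of them.

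**Figure D3:**
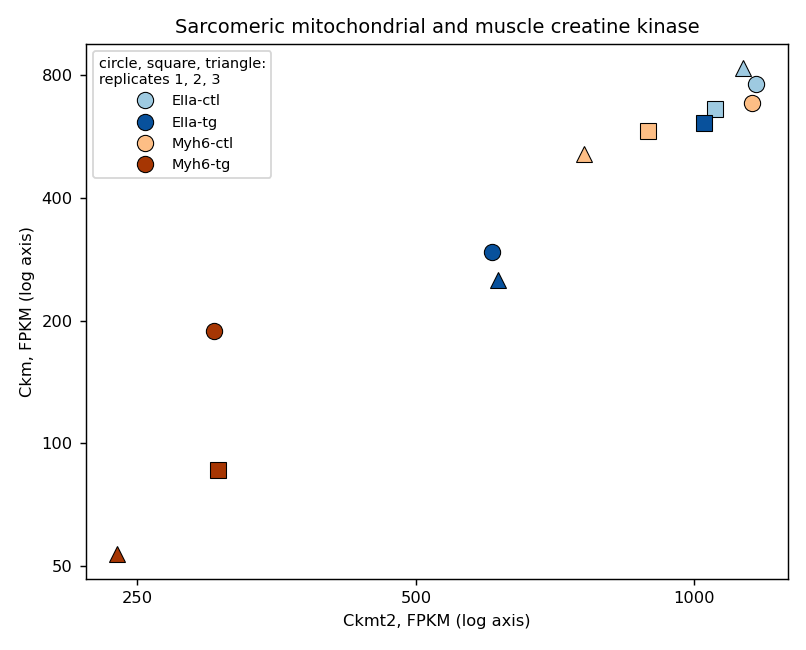
FPKM of Ckm (y axis, log scale) against FPKM of Ckmt2 (x axis, log scale), with 1 symbol per heart, coloured by group. The control hearts and EIIa-tg replicate 2 lie at the upper right and the 3 hearts labelled Myh6-tg at the lower left, at 53.4 to 188 FPKM of Ckm.

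Ckb took a larger share where the muscle forms fell. Its share of the summed FPKM was 1.60% ± 0.186 (SD, n = 3) for EIIa-ctl against 2.72% ± 0.862 for EIIa-tg, and 2.15% ± 0.236 for Myh6-ctl against 12.2% ± 3.99 for Myh6-tg. The Ckb share was 8.2%, 12.3% and 16.2% in the 3 hearts labelled Myh6-tg and at most 3.67% in any other heart. The sum over the 4 genes in those 3 hearts was 539, 447 and 349 FPKM, while Ckb itself was 44.2, 54.8 and 56.4 FPKM, against 35.1, 35.1 and 29.0 FPKM in Myh6-ctl hearts. On the log2(FPKM + 1) scale the median gene was also 0.34 higher in Myh6-tg hearts, and Ckb was 0.29 above it. After TMM scaling the change of Ckb had an adjusted p of 0.478 by edgeR. Ckmt1 stayed under 1% of the sum in all 12 hearts, with 0.743% in Myh6-tg replicate 1 the highest. As shares of CPM, which is not per length, Ckm took 54.5%, 46.5%, 53.2% and 35.1% in the order of groups above.

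**Figure D4:**
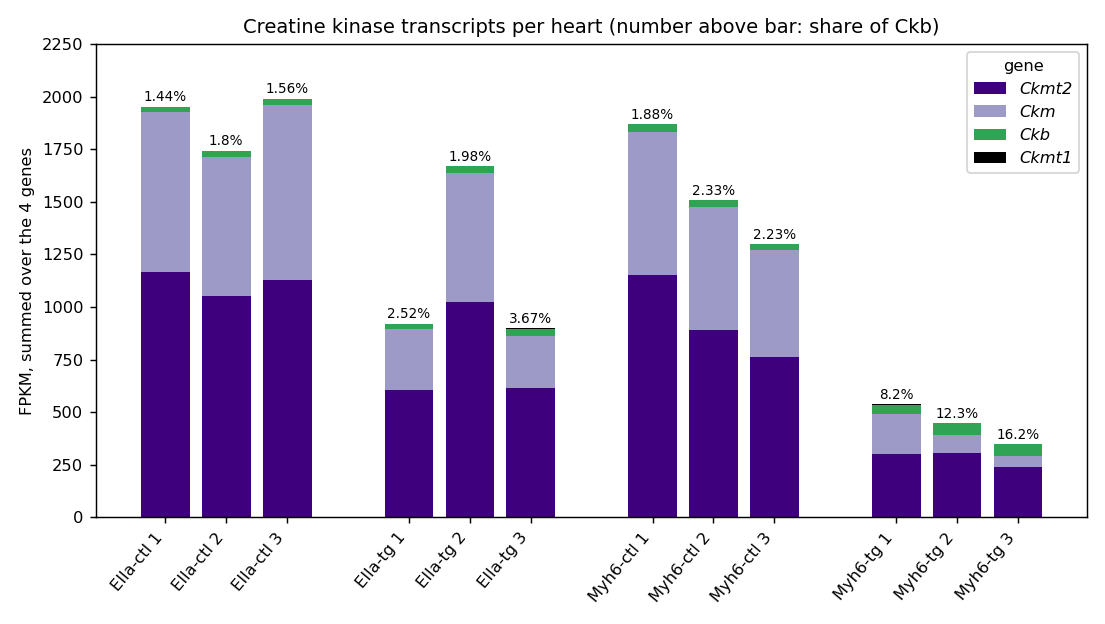
Stacked FPKM (y axis, from 0) of Ckmt2, Ckm, Ckb and Ckmt1 in each of the 12 hearts (x axis), with the Ckb share of the sum printed above each bar. The bars of the hearts labelled Myh6-tg are the lowest, and their Ckb shares, from 8.2% to 16.2%, are the largest.

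Ckm, Ckmt2 and Ak1 followed each other across the hearts. Over the 12 hearts, which share the group differences, Pearson's r was taken of log2 CPM after TMM scaling. It was 0.977 for Ckm with Ckmt2, 0.963 for Ckm with Ak1 and 0.964 for Ckmt2 with Ak1. Slc6a8 ran against Gamt with r of -0.853. Of 10220 genes searched, the genes most like Ckm were Mccc1 (r = 0.994), Coq9 and Gatb, and those most like Ckmt2 were Mrpl45 (r = 0.992), Amacr and Reep5. Coq9 takes part in making coenzyme Q, and Mrpl45 is a protein of the mitochondrial ribosome. The genes most like Ak1 were Psme1 (r = 0.994), Fh1 and the cardiomyocyte marker Tnni3.

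The remaining members had weaker best matches. Slc6a8 was most like Rab3ip (r = 0.959), Clu and Galc, Ckb most like Ugp2 (r = 0.915), Alg3 and Zfp9, and Ckmt1 most like Jdp2 (r = 0.945), Stbd1 and Gm2a. Gamt was most like Naa20 (r = 0.952), Nck1 and Tfam, and Gatm most like Pltp (r = 0.899), Lrrc17 and Rexo4. These values describe 12 hearts in 4 groups and carry no test.

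The genes around the creatine kinase system were taken as 7 lists with 59 genes. Of the 51 that were tested in the EIIa model, 3 were called higher and 8 lower by edgeR (8.65% and 8.3% of all genes), with a median log2 fold change of -0.14. In the Myh6 model 5 of 51 were called higher and 10 lower, against 8.96% and 9.38% of all genes, with a median of -0.16. Ak5, Ak7, Ak8, Ak9, Ampd1 and Mat1a were too low to be tested in any comparison. Between control groups 0 of 51 were called by edgeR, while DESeq2 called 3.

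Adenylate kinases other than Ak1 included 2 that fell in EIIa-tg hearts. Ak3, the mitochondrial matrix enzyme that uses GTP, stood at 108 to 125 CPM in EIIa-ctl and 61.1 to 85.6 CPM in EIIa-tg hearts, a change of -0.85 ± 0.17 (SE, adjusted p = 0.0207 by edgeR). Ak4, another mitochondrial member, fell in both models, by 0.81 ± 0.23 in EIIa-tg (adjusted p = 0.0438) and by 1.49 ± 0.27 in hearts labelled Myh6-tg (adjusted p = 0.0119, both by edgeR). Of 4 tested in this list, 2 were called lower in the EIIa and 1 in the Myh6 model, where 8.3% and 9.38% of all genes were called lower.

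Carriers of ATP out of mitochondria were called in 1 of 5 cases in the EIIa model and in 0 of 5 in the Myh6 model. The shares of all genes called were 17% and 18.3%. Slc25a5, an adenine nucleotide carrier, fell by 0.41 ± 0.09 on the log2 scale in EIIa-tg hearts (adjusted p = 0.0278 by edgeR). Slc25a4, the carrier of heart and muscle, changed by -1.26 ± 0.38 in hearts labelled Myh6-tg, with an adjusted p of 0.0547 by edgeR, and stood at 1230.5 to 2374 CPM there against 2634 to 3394 CPM in its controls. The porin genes Vdac1 and Vdac3 had log2 changes of -0.82 ± 0.28 and -0.70 ± 0.24 (adjusted p = 0.0765 and 0.0793 by edgeR), and neither passed.

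Nucleoside diphosphate kinases, which pass phosphate from ATP to other nucleotides, were called for 2 of 6 genes in the Myh6 model, in opposite directions. By edgeR, 18.3% of all genes were called in this model and 17% in the EIIa model. Nme1, a cytosolic form, rose by 0.94 ± 0.22 (adjusted p = 0.0254), from 14.0 to 20.0 CPM in Myh6-ctl to 40.8 to 44.2 CPM in Myh6-tg hearts. Nme4, the mitochondrial form, fell by 2.19 ± 0.39 (adjusted p = 0.0111, both by edgeR). Its level was low, at 2.87 to 3.76 CPM in Myh6-ctl and 0.789 to 1.07 CPM in Myh6-tg hearts. In the EIIa model 0 of 6 were called by edgeR, and the lowest adjusted p was 0.0962 for Nme6.

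AMP deaminases and subunits of AMP-activated kinase, the enzymes that act on and sense AMP, included some of the largest changes. Prkab2, a regulatory subunit of AMP-activated kinase found in muscle, rose by 2.49 ± 0.34 (SE) in hearts labelled Myh6-tg (adjusted p = 0.00517 by edgeR), to 172 to 472 CPM from 43.9 to 56.9 CPM in controls. Ampd3, an AMP deaminase, rose by 1.34 ± 0.22 (adjusted p = 0.00928 by edgeR), to 106 to 121 CPM from 21.6 to 41.7 CPM. In EIIa-tg hearts Prkag3, another regulatory subunit, rose by 2.16 ± 0.29 (adjusted p = 0.0145) and Prkab1 fell by 0.46 ± 0.12 (adjusted p = 0.0391, both by edgeR). Of 9 tested, 1 was called higher and 1 lower in the EIIa model and 2 higher in the Myh6 model. Among all genes, 8.65% were called higher and 8.3% lower in the EIIa model, and 8.96% higher in the Myh6 model.

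Of 9 genes tested that feed creatine synthesis with arginine and methyl groups, 1 was called higher and 1 lower in the EIIa model, and 2 higher and 2 lower in the Myh6 model, where 17% and 18.3% of all genes were called. The list had members in both directions in each model. Ahcy, which clears the product of methylation, rose in both, by 0.45 ± 0.12 (adjusted p = 0.0368) and 0.80 ± 0.18 (adjusted p = 0.0208, both by edgeR). The arginine transporter gene Slc7a1 fell by 0.59 ± 0.16 in EIIa-tg hearts (adjusted p = 0.0432), and Slc7a2, a related transporter gene, rose by 1.34 ± 0.38 in hearts labelled Myh6-tg (adjusted p = 0.0444, both by edgeR). Oat, which breaks down ornithine, fell by 1.10 ± 0.23 in the latter (adjusted p = 0.0171 by edgeR), and Mat2a, which makes the methyl donor, fell by 0.78 ± 0.22 (adjusted p = 0.0471 by edgeR). Mat2a stood outside the rule for named genes and was chosen after its values were seen.

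ATP users near creatine kinase fell in part. For comparison, 8.3% of all genes were called lower in the EIIa and 9.38% in the Myh6 model. In hearts labelled Myh6-tg, Myh6, the main myosin motor of the adult mouse heart, fell by 2.60 ± 0.57 (adjusted p = 0.0208) and the calcium pump Atp2a2 by 1.81 ± 0.38 (adjusted p = 0.0178, both by edgeR), and 3 of 8 in the list were called lower. In EIIa-tg hearts Myom1, a protein of the M-band where muscle creatine kinase binds, fell by 0.77 ± 0.16 (adjusted p = 0.0227 by edgeR), and 2 of 8 were called lower. Myh7, the slow myosin of the fetal mouse heart, rose by 1.87 ± 0.51 there (adjusted p = 0.0423 by edgeR), from 375 to 490 CPM in controls to 657 to 3461 CPM.

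Of 10 transcription regulators linked to muscle creatine kinase, 1 was called lower in the EIIa and 3 in the Myh6 model. The shares of all genes called lower were 8.3% and 9.38%. Ppargc1a, a coactivator of mitochondrial genes, fell by 2.39 ± 0.34 in hearts labelled Myh6-tg (adjusted p = 0.00588), from 57.4 to 148 CPM to 19.0 to 28.7 CPM. Esrra, a nuclear receptor it works with, fell by 1.16 ± 0.25 (adjusted p = 0.0196) and the muscle factor Mef2c by 0.70 ± 0.20 (adjusted p = 0.0462, all by edgeR). In EIIa-tg hearts Tead1 fell by 0.62 ± 0.11 (adjusted p = 0.0185 by edgeR).

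**Figure D5:**
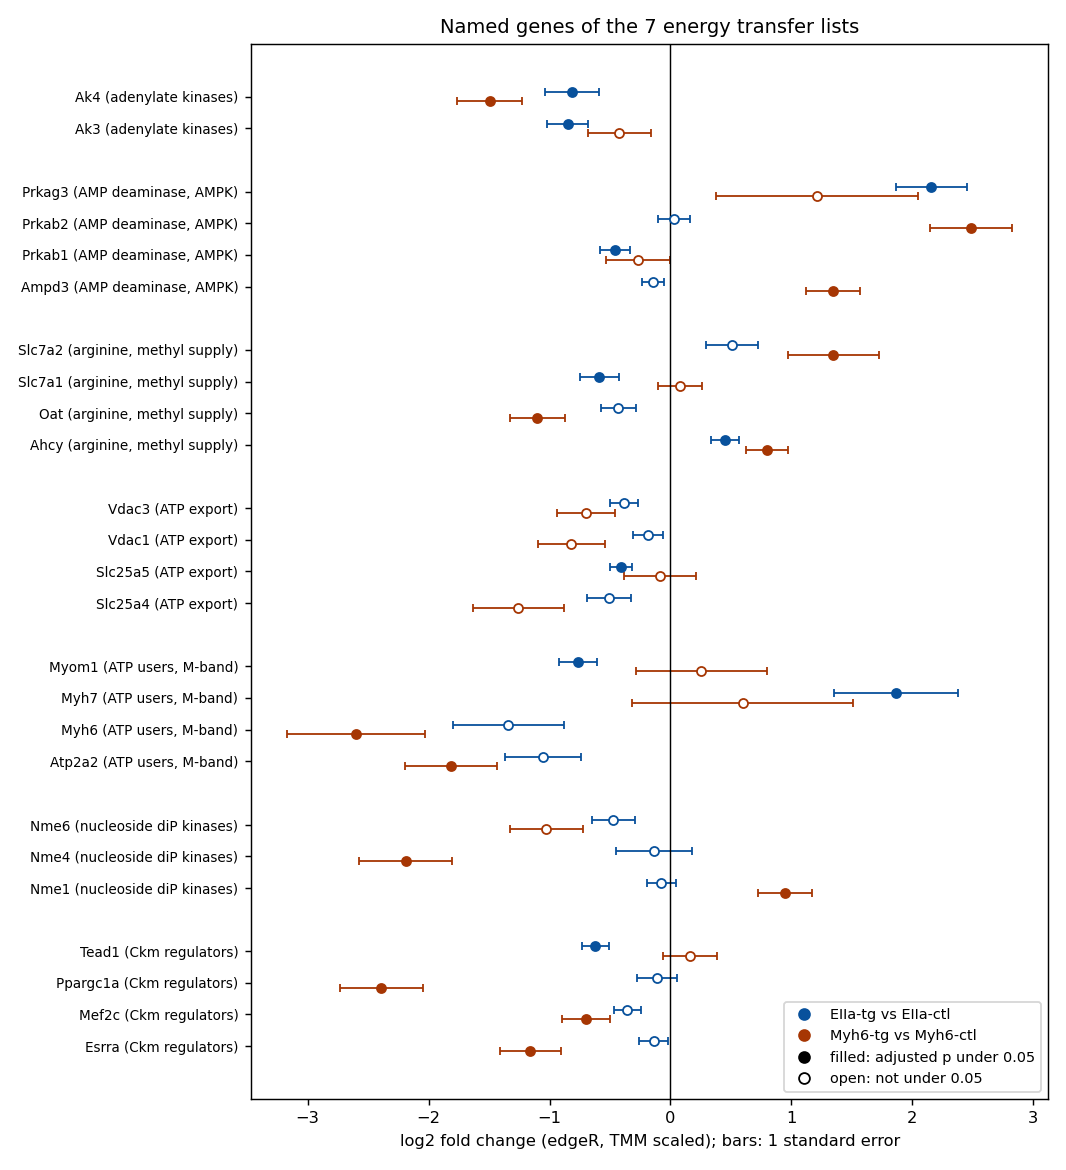
Log2 fold change (x axis) with bars of 1 standard error for genes of the 7 lists named in the text (y axis, list in brackets) in the EIIa and the Myh6 model, with filled symbols for an adjusted p under 0.05 by edgeR. Prkab2 at 2.49 and Myh6 at -2.60 lie farthest from 0 in the Myh6 model, and Prkag3 at 2.16 in the EIIa model. Mat2a and the genes too low to be tested are not drawn.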

How the data were processed

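RNA from 12 mouse hearts was sequenced in read pairs, and the authors deposited a table of raw read counts per gene and of FPKM values per gene and sample. The methods name HISAT2 and GRCm38, while the submitters' processing notes list HISAT2 2.0.4, StringTie 2.2.1, DESeq2 and the builds GRCm39 and mm10, and the counter and annotation are not given in the sources used here. Groups follow the sample titles.

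Counts were tested with edgeR 4.0.16 in R 4.3.3 (quasi-likelihood test, filterByExpr, TMM scaling, Benjamini-Hochberg adjustment over all genes tested), within each model, over all 12 hearts for the difference between models, and between the control groups. A gene was called at an adjusted p under 0.05 and a DEG at an adjusted p under 0.01 with an absolute log2 fold change of at least 1. CPM values are counts scaled to the total of each heart. The titles call the hearts of a group biological replicates. No pair of libraries agreed within sampling noise. The scripts were tested on simulated data. Alternatives were DESeq2 1.42.0, RLE size factors, other count filters, all 12 hearts in one fit, a replicate block, a covariate for Y-linked counts, the table without mitochondrial genes, limma 3.58.1 on log2(FPKM + 1) or log2(FPKM + 0.1), and each heart left out in turn. The same-numbered hearts of the Myh6 model deviated together (correlations of 0.285, 0.184 and 0.173), those of the EIIa model did not (0.060, -0.070 and -0.050).

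Named were all 8 members and up to 3 genes with the lowest p in each of the 7 pathway lists per model. For each member the 3 genes with the highest Pearson correlation were also named. These correlations used TMM-scaled log2 CPM, among genes with a mean of at least 5 CPM. Members and lists were chosen with earlier results of these data known. Some genes that this rule names are not reported here. Protein sequences were not used here.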

Additional observations from a re-analysis of the deposited data

Results flagged for a closer look

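Among the pathway genes, 5 changed differently in the Myh6 and the EIIa model by edgeR's test of the difference between the 2 log2 fold changes over all 12 hearts. The difference was 2.45 ± 0.37 (SE, adjusted p = 0.00686) for Prkab2, whose mean level was 365 CPM in hearts labelled Myh6-tg and 44.8 CPM in EIIa-tg hearts. It was 1.48 ± 0.24 (adjusted p = 0.00825) for Ampd3 and 1.02 ± 0.25 (adjusted p = 0.0465) for Nme1, both higher in the Myh6 model. It was -2.28 ± 0.40 (adjusted p = 0.0112) for Ppargc1a and -2.06 ± 0.47 (adjusted p = 0.0322) for Nme4, both lower in the Myh6 model. Age, Cre line, tamoxifen and oil differ between the models together with the cells that express the transgene, and these cannot be told apart. The unresolved Esr1 difference between the Myh6 groups cannot be told apart from them either.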

How the results depend on the processing

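Of 562 values of single members under the alternatives, 515 kept their direction and their side of the threshold, 13 lost and 23 gained significance, and 11 changed sign. In the EIIa model the count of members called went from 1 to 2 with DESeq2, 3 with no filter on low counts and 0 with all 12 hearts in one fit, the Y-linked covariate or limma on log2(FPKM + 1) with no filter, and to 0 to 3 without 1 heart (3 without EIIa-tg replicate 2). With limma and a filter it stayed at 1, but the gene was Ckm and not Ak1. Member DEGs there went from 0 to 0 to 2 without 1 heart (2 without EIIa-tg replicate 2), and pathway genes called from 11 to 20 with DESeq2, 0 with all 12 hearts, 5 with the Y-linked covariate, 0 with limma and no filter, and 0 to 23 without 1 heart (23 without EIIa-tg replicate 2). In the Myh6 model members called went from 3 to 5 with all 12 hearts or any limma fit. They were 4 with the Y-linked covariate and 2 to 3 without 1 heart. Member DEGs there went from 1 to 3 with DESeq2, no filter, all 12 hearts or the Y-linked covariate, and to 2 with the filter on 1 CPM. These DEGs were 4 with limma on either pseudocount, and 0 to 3 without 1 heart (3 without Myh6-tg replicate 1). Pathway genes called there went from 15 to 24 with all 12 hearts and to 4 to 27 without 1 heart (27 without Myh6-tg replicate 1). For the difference between models, members called went from 0 to 2 with DESeq2, 1 with limma on log2(FPKM + 1) and 0 to 3 without 1 heart (3 without Myh6-tg replicate 1), member DEGs from 0 to 0 to 1, and pathway genes called from 5 to 8 with DESeq2 or limma and 3 to 10 without 1 heart. Between controls, pathway genes called went from 0 to 3 with DESeq2 and to 0 to 2 without 1 heart. The replicate block, which pairs hearts by number, gave 0 members and 0 pathway genes called in the EIIa model. Same-numbered hearts did not vary together there. In the Myh6 model the block gave 3 member DEGs. It left the other member calls as they were. The sign changed for Slc6a8 in the EIIa model (-0.036 without EIIa-tg replicate 1, and up to 0.26 without 1 of the other hearts), for Ckmt1 in the difference with limma (0.59, 0.63 and 0.59) and over the fits without 1 heart (-1.53 to 0.54), and for Gatm between controls (-0.018 to 0.56 without 1 heart, the lowest without Myh6-ctl replicate 3). Over all genes, the EIIa model had 2527 calls against 3539 with DESeq2, 227 with all 12 hearts, 1 with the block and 1 with limma and no filter, and 0 DEGs against 836 with DESeq2. The Myh6 model had 2805 calls against 5049 with all 12 hearts, and 608 DEGs against 2137 with DESeq2, 1857 with all 12 hearts, 969 with the block and 1257 with limma. The difference had 624 calls against 1396 with DESeq2, and the controls 5 against 429 with DESeq2 and 27 with the block. The causes were not tested. Depth limits Ckmt1, Gatm and Gamt, which had at most 393 counts in any heart.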

Other observations

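Markers of other cells of the heart moved as follows by edgeR's test, which called 17% of all genes in the EIIa and 18.3% in the Myh6 model. Of 7 fibroblast markers, 2 were called higher in EIIa-tg hearts, with a sum of 1235 to 1941 CPM in EIIa-ctl and 2592 to 4168 CPM in EIIa-tg hearts. Of 6 endothelial markers, 3 were called lower in EIIa-tg hearts and 0 in the hearts labelled Myh6-tg, and of 6 macrophage markers 0 were called in the Myh6 model, where their sum was 359 to 593 CPM in Myh6-ctl and 679 to 1123 CPM in Myh6-tg hearts, without overlap. Of 5 smooth muscle markers, 1 was called higher and 1 lower in the EIIa model, and 1 higher and 2 lower in the Myh6 model. Of the 8 skeletal muscle markers, which summed to at most 54.8 CPM in any heart, Tnnt3 was called higher in both models. Adipocyte markers summed to 15.2 to 40.8 CPM and markers of neurons and glia to 5.73 to 14.8 CPM over the hearts, and none of those tested was called in either model.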
